A study of Mus musculus with 12 samples.

Results

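The genes described here had less RNA in *Tbpl2*-/- than in WT mouse oocytes at postnatal day 7 (P7), but not at P14. They numbered 57 of the 55450 genes counted. A member had a *Tbpl2*-/- group mean of at most 0.5 of the WT mean at P7 and of at least 0.9 of it at P14. Its mean over the 12 libraries was at least 500 normalised counts, that is, reads per gene divided by a size factor for the library. Genes of several large families, mitochondrial genome genes and predicted genes were left out by their symbols. The members were therefore chosen by these same libraries, so their levels at the 2 ages are given as a description, and counts of members called in a fit over all genes only restate the choice. Of 7744 genes with that mean after the exclusion by symbol, 1009 were at or below 0.5 at P7, and of those 668 were also at or below 0.5 at P14, 284 lay between the limits and 57, or 5.65%, were members. The median P14 ratio of the 1009 genes was 0.402. A further 13 genes met the 3 limits and were left out by symbol, 6 of them mitochondrial genome genes.

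Oocytes were compared in 4 groups of 3 libraries, each library from its own pool of hand-picked cells: P7 *Tbpl2*-/- and P7 WT oocytes from primary follicles, and P14 *Tbpl2*-/- and P14 WT oocytes from secondary follicles. The *Tbpl2*-/- line is a constitutive null, so that *Tbpl2* is missing from every cell of the animal and at every age. The pools held 251 to 340 oocytes for P7 *Tbpl2*-/-, 350 to 400 for P7 WT, 130 to 214 for P14 *Tbpl2*-/- and 144 to 260 for P14 WT, taken after enzyme digestion of the ovaries and chosen by size. The labels call the pools biological replicates without naming the animals, so the spread between libraries is that between pools. Such bulk libraries cannot tell fewer cells of a type from less RNA per cell.

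TBPL2 is a paralogue of the TATA-binding protein (TBP) that takes over the start of transcription by RNA polymerase II in growing oocytes, when TBP is no longer detected. Oocytes in primary follicles have begun to grow and oocytes in secondary follicles are well into growth. The authors of the data state that without TBPL2 oocytes fail to grow and the production of secondary follicles is defective. Genotype and stage of growth therefore cannot be told apart at P14. Much of the RNA of a growing oocyte is stored rather than translated at once, so a level measured at either age holds both newly made and older RNA. The members include writers of H3K4 methylation, a mark of active promoters, the factor FOXO3, which keeps primordial follicles dormant, and YBX2 (MSY2), a protein that binds and stores maternal mRNA.

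Before the members are described, several libraries need to be set apart. Total counts ran from 31467610 to 48030724 per library, and *Tbpl2* itself had 75.2 to 117 normalised counts in *Tbpl2*-/- libraries and 1900.5 to 3317 in WT libraries. Among the P7 WT libraries, replicate 1 was the lowest of the 3 for 45 of the 57 members, a place it took for 35.9% of the 17715 genes with enough counts to be tested. A percentage in parentheses after a count of members is likewise the share of all tested genes. Its level was 0.695 times the mean of replicates 2 and 3 in the median member, with a range of 0.515 to 1.32, and 1.05 times in the median gene with a mean of at least 500. Among the P14 WT libraries, replicate 2 was lowest for 44 members (31.8% of tested genes), and among the P14 *Tbpl2*-/- libraries replicate 1 was lowest for 31 members (38.2%), both being lowest for 28 (18.6%). The highest library of a group was at least 2 times the lowest for 0 members in P7 *Tbpl2*-/- (15.4%), 5 in P7 WT (21.6%), 8 in P14 *Tbpl2*-/- (16.8%) and 12 in P14 WT (16.9%). The pools of these 2 P14 libraries gave 2.8 ng of RNA in *Tbpl2*-/- and 2.6 ng in WT, the least of the 12. The part of the RNA amount in the members' levels was not tested.

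Some other RNAs were also lower in *Tbpl2*-/- than in WT at P7. The summed mRNAs of the mitochondrial genome, of which 5 of 13 are listed at 0 in all libraries, came to 89389, 68414 and 70545 normalised counts in P7 *Tbpl2*-/- and to 124844, 302688 and 244531 in P7 WT. At P14 they came to 22944, 18032 and 23706 in *Tbpl2*-/- and to 16699, 11558 and 27108 in WT. As with the members, each P7 *Tbpl2*-/- library lay below each P7 WT library, the genotypes overlapped at P14, and replicate 1 was the lowest of the P7 WT libraries. The summed level of 17 markers of granulosa cells, the cells around the oocyte, was 2569 to 3111 in P7 *Tbpl2*-/- and 5147 to 6852 in P7 WT, and 11 of the 17 were lower by more than 2-fold with an adjusted p of at most 0.05 (edgeR's quasi-likelihood test, a call that 17.1% of tested genes reached). At P14 that sum was 6200 to 6793 in *Tbpl2*-/- and 7142 to 7522 in WT, a direction that turned with library size scaling. An exact two-sided permutation test gave p = 0.1 at each age, the smallest that 3 against 3 libraries allow (adjusted p = 0.114 over 16 such tests). All 17 markers had counts at both ages. In WT their sum was higher at P14 than at P7, whereas the sum of the members was lower. Single granulosa cell markers went both ways in WT. *Esr2* had 1174 to 1458 in P7 WT and 2629 to 2731 in P14 WT, and *Gata4* 714 to 1164 and 1534 to 1811. *Inha* had 554 to 847 in P7 WT and 343 to 462 in P14 WT, and *Hsd17b1* 129 to 256 and 40.2 to 45.1. The part of mitochondrial and granulosa cell RNA in the members' levels was not tested. The 12 oocyte markers were detected in all groups, with sums of 457717 to 474156 in P7 *Tbpl2*-/- and 1535590 to 1710150 in P7 WT. Unlike the members, the sum of oocyte markers was as far below WT at P14, with 402109 to 478864 in *Tbpl2*-/- and 1329160 to 1517020 in WT. Not every marker followed the sum. By the same edgeR call 8 of the 12 were lower and 0 higher at P7 (17.1% and 15.5% of tested genes). At P14 8 were lower and 1 higher (14.6% and 16.7%). *Ddx4* had 21879 to 26007 in P7 *Tbpl2*-/- and 12361 to 17295 in P7 WT. Marker sums of further cell types went both ways at P7. For ovarian surface epithelium the sum was 2044 to 2176 in *Tbpl2*-/- and 607 to 1135 in WT, most of it from *Lrrn4*. For stroma and theca it was 178 to 225 in *Tbpl2*-/- and 107 to 164 in WT. The endothelium sum was 764 to 896 in *Tbpl2*-/- and 1063 to 1909 in WT. For blood and immune cells it was 290 to 333 in *Tbpl2*-/- and 960 to 1389 in WT.

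**Figure D1:**
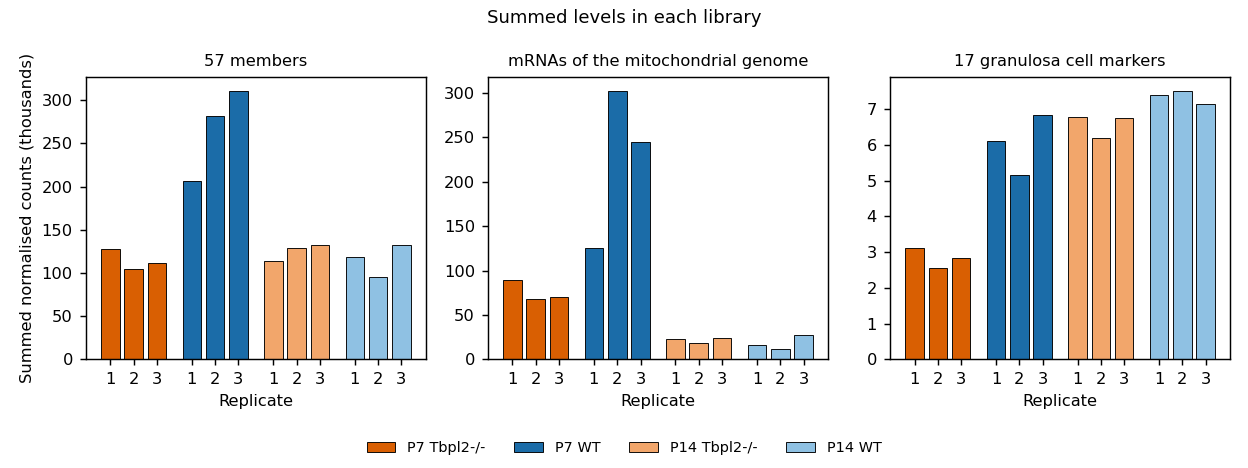
Summed normalised counts (axis in units of 1000) in each of the 12 libraries, by replicate, of the 57 members, of the mRNAs of the mitochondrial genome and of 17 granulosa cell markers. The 3 P7 WT bars of the members stand above all others, with replicate 1 the lowest of them, and the mitochondrial bars have the same order of groups at P7.

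The summed level of the 57 members was 127266, 104440 and 111511 normalised counts in P7 *Tbpl2*-/- and 207050, 282289 and 311175 in P7 WT. At P14 the sum came to 114196, 128800 and 132459 in *Tbpl2*-/- and to 118195, 95445 and 132162 in WT. The P7 WT libraries thus stood alone above the other 9, and the other 3 groups lay close together.

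TBPL2 acts at promoters, and the annotated ones of members are shown here for the letters before the start. The starts used in these oocytes may differ from the annotated ones and were not mapped here. RefSeq (GRCm38.p6) gave a promoter, 250 bases before to 50 after an annotated start, for 46 of the 57 genes. The letters TATAA, searched on the strand of the gene 40 to 20 bases before the start, were found in 4 of these 46 genes, or 8.70%. The same search found them in 1.99% of 6234 genes with a mean of at least 500, in 4.09% of 538 genes at or below 0.5 at both ages, in 4.0% of 50 genes lower only at P14 and in 4.06% of all 27025 genes with a promoter. As a share of promoters it was 6.45% for the members and 3.38% for all 32851. With the longer letters TATAAA the search found 1 member, or 2.17%, beside 1.01% of genes with a mean of at least 500, 2.23% of genes at or below 0.5 at both ages and 2.31% of all genes with a promoter. These counts are small and were not tested. The 4 promoters with the letters follow, which are those of *Ttn* (chr2:76982498-76982797, minus strand), *Foxo3* (chr10:42276646-42276945, minus strand), *Ubl5* (chr9:20642628-20642927, plus strand) and *Dio3* (chr12:110278980-110279279, plus strand), and then that of the most abundant member, *Dynll1* (chr5:115300941-115301240, minus strand), which has none there. Capitals mark TATAA in the searched window only.
Ttn: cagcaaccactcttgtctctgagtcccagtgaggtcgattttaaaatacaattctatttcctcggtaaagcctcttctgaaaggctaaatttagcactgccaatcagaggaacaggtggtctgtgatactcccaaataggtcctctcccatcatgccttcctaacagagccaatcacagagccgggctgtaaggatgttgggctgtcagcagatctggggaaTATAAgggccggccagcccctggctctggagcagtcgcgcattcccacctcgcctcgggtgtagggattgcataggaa
Foxo3: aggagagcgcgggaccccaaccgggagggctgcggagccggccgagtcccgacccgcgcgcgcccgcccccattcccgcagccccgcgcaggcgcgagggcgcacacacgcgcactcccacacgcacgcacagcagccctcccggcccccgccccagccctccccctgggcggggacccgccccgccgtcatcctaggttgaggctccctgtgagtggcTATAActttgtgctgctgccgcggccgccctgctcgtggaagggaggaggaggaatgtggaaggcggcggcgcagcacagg
Ubl5: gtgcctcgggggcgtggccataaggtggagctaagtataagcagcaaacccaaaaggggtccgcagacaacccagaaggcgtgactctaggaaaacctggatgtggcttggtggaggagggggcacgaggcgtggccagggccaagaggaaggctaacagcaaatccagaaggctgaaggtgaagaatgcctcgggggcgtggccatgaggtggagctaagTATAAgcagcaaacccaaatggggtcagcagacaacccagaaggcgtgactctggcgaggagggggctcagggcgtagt
Dio3: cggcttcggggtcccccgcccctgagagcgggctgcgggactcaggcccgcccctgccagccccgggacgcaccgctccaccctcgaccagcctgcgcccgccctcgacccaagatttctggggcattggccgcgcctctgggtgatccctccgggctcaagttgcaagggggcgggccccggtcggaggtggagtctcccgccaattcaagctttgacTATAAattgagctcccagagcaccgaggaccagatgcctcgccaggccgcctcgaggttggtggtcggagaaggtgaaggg
Dynll1: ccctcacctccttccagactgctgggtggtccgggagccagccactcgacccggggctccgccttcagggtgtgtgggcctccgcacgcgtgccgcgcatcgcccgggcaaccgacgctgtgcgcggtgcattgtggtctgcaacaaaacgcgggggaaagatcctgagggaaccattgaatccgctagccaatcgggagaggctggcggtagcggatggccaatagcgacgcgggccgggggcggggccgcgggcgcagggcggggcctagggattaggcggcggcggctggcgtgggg
The capital letters begin at position −28 from the start in *Ttn*, −31 in *Foxo3*, −29 in *Ubl5* and −31 in *Dio3*. These 4 genes have different roles, in muscle, follicle dormancy, splicing and thyroid hormone breakdown. G and C made up 71% of the bases of the *Dynll1* promoter, and 51.7%, 75%, 59% and 69% of those of *Ttn*, *Foxo3*, *Ubl5* and *Dio3*. The median over the members' 62 promoters was 63%, beside 61.7% for genes with a mean of at least 500.

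At P7 every *Tbpl2*-/- library lay below every WT library for all 57 members, a separation seen in 31.1% of tested genes and fixed in large part by the rule. The ratio of the group means ran from 0.192 for *Pdpn* to 0.498 for *B4galt5*, with a median of 0.446. With replicate 1 alone as the WT value, 17 of the 57 were at or below 0.5 (18.4% of tested genes) and the median ratio was 0.555, and with replicates 2 and 3 it was 56 of 57 (19.8%) and 0.399. All *Tbpl2*-/- libraries were nevertheless below WT replicate 1 in all 57 members (41% of tested genes). In the fit over all genes, 47 members were lower by more than 2-fold with an adjusted p of at most 0.05 (17.1% of tested genes), and 54 at any fold (28.9%). The rule used this contrast, so nothing is read from these counts beside their shares. The 3 that did not reach that adjusted p, *Kmt2d*, *Setd1b* and *Dio3*, had the largest standard errors of all members, 0.53, 0.62 and 0.43 on the log2 scale.

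At P14 the libraries of the genotypes overlapped for 45 members, and for the other 12 all *Tbpl2*-/- libraries lay above all WT libraries (32.5% of tested genes). The P14 ratio ran from 0.905 for *Timm8b* to 3.01 for *Dio3*, with a median of 1.04, and it was at least 1 in 39 members. Only *Setd1b*, *Fjx1* and *Dio3* had a ratio of 2 or more. In the fit over all genes, *Fjx1* and *Dio3* were higher by more than 2-fold (16.7% of tested genes) and no member was lower (14.6%). At any fold 7 members were higher (29.9%), namely *Pcbd2*, *Tmem258*, *Adra2c*, *Tcf7l2*, *Fjx1*, *Dio3* and *Yy1*, and none was lower (27.8%). The genotype effect was called more positive at P14 than at P7 by more than 2-fold for 46 members (8.16%) and more negative for none (5.41%). At any fold these counts were 51 (13.6%) and 0 (14.3%). Since the rule fixes the sign of that difference, nothing is read from these counts. Without P14 *Tbpl2*-/- replicate 1 the overlap fell to 33 members, with 19 above WT and 5, *Spag7*, *Zcrb1*, *Rp9*, *Selenok* and *Fam104a*, below WT. With fewer libraries any gene separates more easily, and the shares of all tested genes were not taken for this setting. Nothing is therefore read from these counts about the members.

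**Figure D2:**
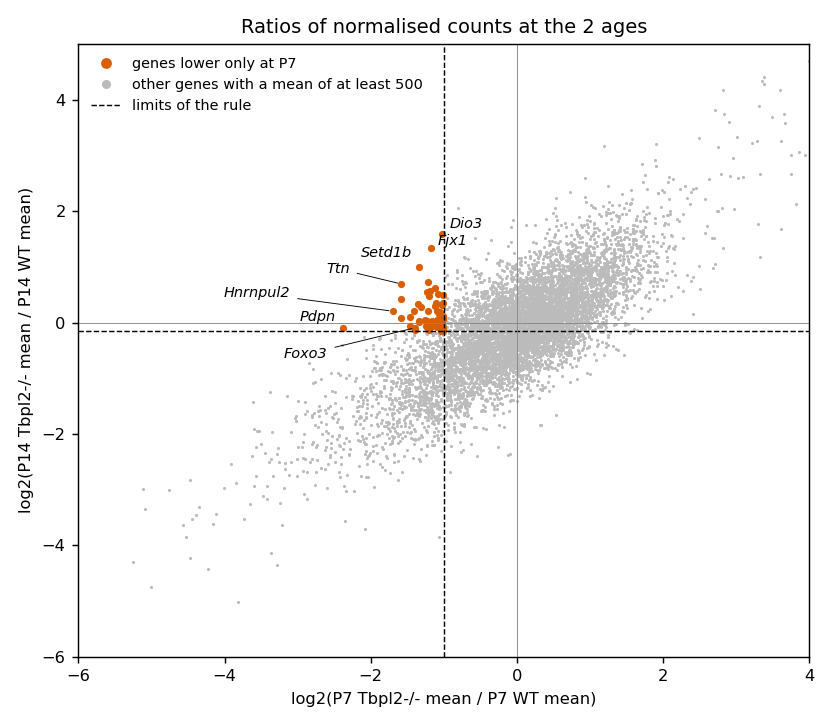
Each point is a gene with a mean of at least 500 normalised counts, placed by the log2 ratio of *Tbpl2*-/- to WT means at P7 (horizontal) and at P14 (vertical). The 57 members (orange) fill the corner that the dashed limits define, with *Pdpn* farthest to the left and *Dio3* and *Fjx1* highest, and 4 of 7744 genes lie outside the axes.

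Within each genotype the ages compared differently. In WT the P14 mean was below the P7 mean in 54 of 57 members, at or below 0.5 of it in 34, and the median ratio was 0.460. For genes with a mean of at least 500 the median ratio was 1.11, and for genes at or below 0.5 at both ages it was 1.18. In *Tbpl2*-/- the P14 mean was within 0.8 to 1.25 of the P7 mean in 32 members and above 1.25 in 23, with a median ratio of 1.10. P7 WT was the group with the highest mean in 53 members. All P14 WT libraries lay below all P7 WT libraries for 47 members (26.8% of tested genes) and above them for 1, *Shisa2* (30.4%), while all P14 *Tbpl2*-/- libraries lay above all P7 *Tbpl2*-/- libraries for 18 (26.3%) and below them for 2 (24.1%). As these comparisons use the libraries that chose the members, their direction is not separate evidence. The fit over all genes called 34 members lower by more than 2-fold at P14 than at P7 in WT (11.4%) and none higher (9.34%). In *Tbpl2*-/- it called 7 members higher at P14 (8.78%), namely *Robo3*, *Pdpn*, *Shisa2*, *Adra2c*, *Tcf7l2*, *Hoxa7* and *Fjx1*, and none lower (5.05%), with 1 lower at any fold (15.3%).

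**Figure D3:**
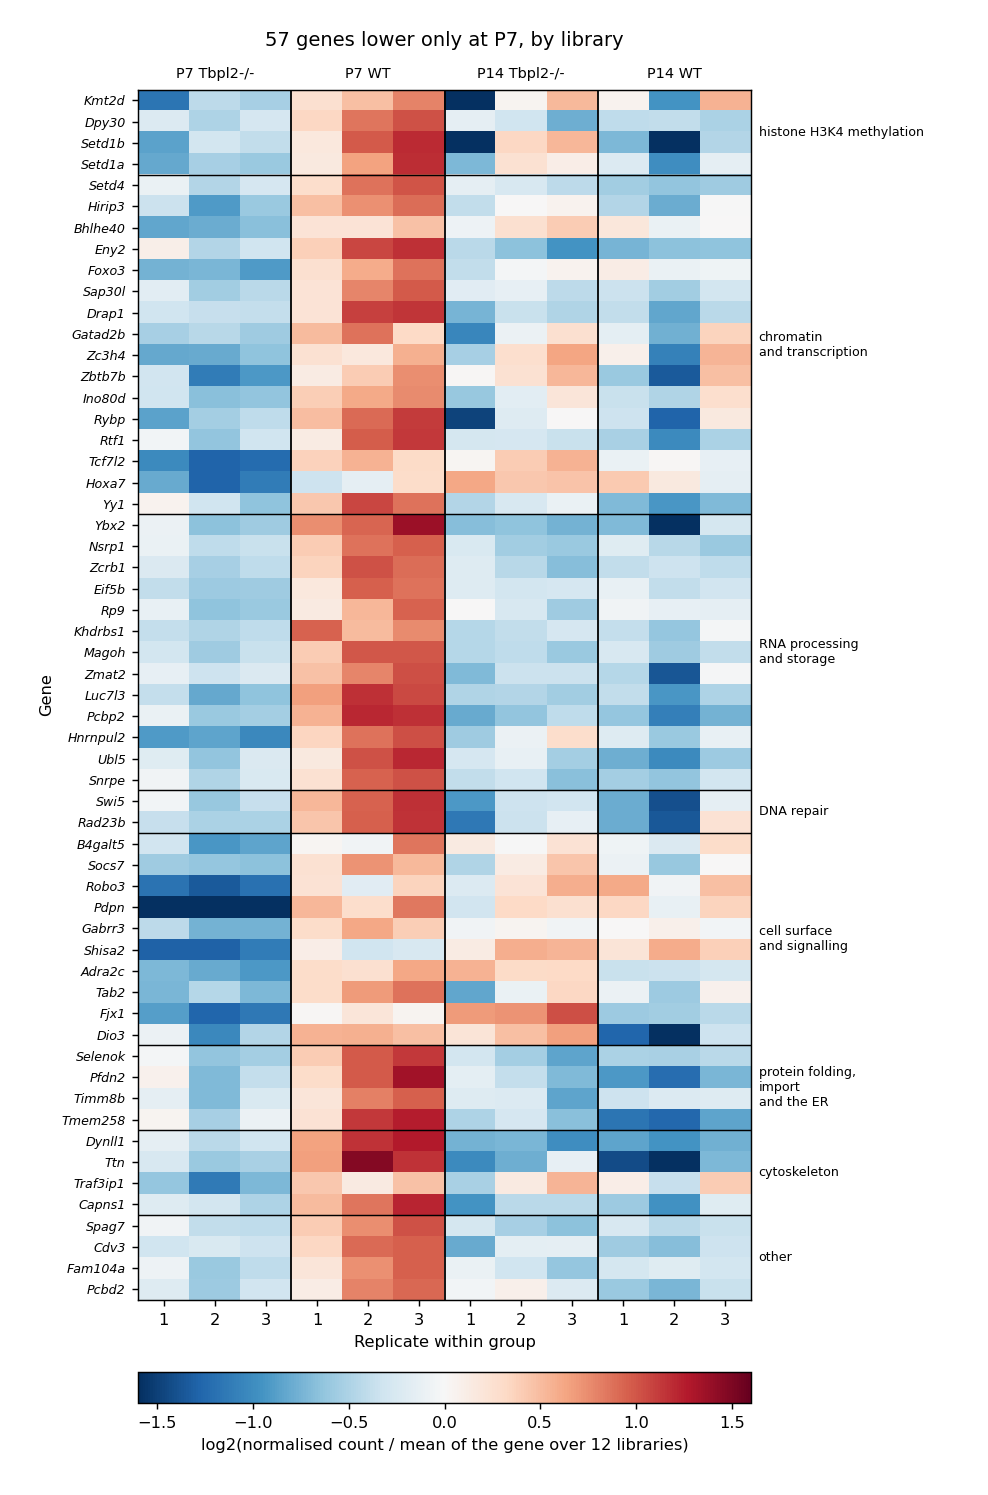
Normalised counts of the 57 members in each of the 12 libraries as the log2 ratio to the gene's own mean over the libraries (colour, limited to 1.6 on either side), with genes grouped by role. The P7 WT columns are red for most genes, replicate 1 least, and the P7 *Tbpl2*-/- columns are blue, whereas the P14 columns of the genotypes look alike for most genes.

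The members fall into 8 groups by role, which were drawn up after their values were seen. The writers of H3K4 methylation hold 4 members. *Kmt2d* (ENSMUSG00000048154, chr15:98831669-98871204), which marks enhancers, had 3732, 6271 and 5794 normalised counts in P7 *Tbpl2*-/- and 10013, 11701 and 14493 in P7 WT. At P14 *Kmt2d* had 2647, 8648 and 11999.9 in *Tbpl2*-/- and 8709, 4328 and 12379 in WT, so that in each genotype the P14 libraries reached from the level of P7 *Tbpl2*-/-, or below it, to that of P7 WT. *Setd1b* (ENSMUSG00000038384, chr5:123142193-123168629), the catalytic subunit of a complex that writes the mark at promoters, had 761, 1122 and 1043 in P7 *Tbpl2*-/- and 1544, 2712 and 3135 in P7 WT. At P14 *Setd1b* had 422, 1728 and 1983 in *Tbpl2*-/- and 836, 233 and 991 in WT. For both genes P14 *Tbpl2*-/- replicate 1 and P14 WT replicate 2 were the lowest of their groups, and a P14 ratio of 2.01 for *Setd1b* therefore rests on overlapping libraries. The related *Setd1a* averaged 390.0 ± 39.5 in P7 *Tbpl2*-/- and 999 ± 351 in P7 WT (mean ± SD, n = 3), and 581 ± 186 in P14 *Tbpl2*-/- and 459.7 ± 134 in P14 WT. *Setd1a* shares 52.3% of its exon bases with the predicted gene *Gm49388*, and reads from such bases may not have been counted. *Dpy30*, a core subunit that these complexes share, averaged 2251 ± 226 in P7 *Tbpl2*-/- and 4786 ± 1106 in P7 WT, and 2148 ± 465 in P14 *Tbpl2*-/- and 2087 ± 88.6 in P14 WT.

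Other subunits of these complexes, listed after the values were seen, had varied levels. Of the 17 tested genes of that list, the 4 members included, 4 were lower and 0 higher by more than 2-fold at P7 (17.1% and 15.5%). At P14 2 were lower and 0 higher (14.6% and 16.7%). The other methyltransferases listed, *Kmt2a*, *Kmt2b* and *Kmt2c*, had P7 log2 fold changes of −2.69, −0.41 and −0.04. Their P14 values were −1.81, 0.27 and −0.15, and *Kmt2a* had at most 117 counts in any library. *Wdr5*, a scaffold of the complexes, averaged 16285 ± 671 in P7 *Tbpl2*-/- and 18822 ± 1536 in P7 WT, and 20081 ± 778 in P14 *Tbpl2*-/- and 26879.7 ± 2121 in P14 WT. *Ash2l*, which binds DPY30, averaged 7632 ± 163 in P7 *Tbpl2*-/- and 5935 ± 448 in P7 WT, and 4859 ± 666 in P14 *Tbpl2*-/- and 6667 ± 1228 in P14 WT, so that it was above WT at P7 and below WT at P14. *Kdm6a*, a demethylase found with KMT2D, was below WT in *Tbpl2*-/- at both ages, with 1197 ± 167 in P7 *Tbpl2*-/- and 3550.1 ± 1611 in P7 WT, and 1242 ± 424 in P14 *Tbpl2*-/- and 7979 ± 708 in P14 WT.

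Among 16 members with roles in chromatin and transcription, *Foxo3* (ENSMUSG00000048756, chr10:42181841-42276755) is the one best known in oocytes. At P7 *Foxo3* had 1666, 1687 and 1502 in *Tbpl2*-/- and 3339, 4253 and 5109 in WT. At P14 it had 2141, 2747 and 2912 in *Tbpl2*-/- and 3051, 2596 and 2671 in WT. Every P7 WT library thus lay above every P14 library, and the P7 *Tbpl2*-/- libraries were the lowest of the 12. The related *Foxo1*, which was not a member, averaged 7737 ± 398 in P7 *Tbpl2*-/- and 10338 ± 720.3 in P7 WT, with 10609 ± 553 in P14 *Tbpl2*-/- and 14064 ± 1325 in P14 WT.

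*Tcf7l2*, a factor that carries WNT signals to genes, had 288, 241 and 250.2 in P7 *Tbpl2*-/- and 753, 865 and 723 in P7 WT. At P14 *Tcf7l2* had 597, 778 and 861 in *Tbpl2*-/- and 544, 596 and 533 in WT. Its P7 ratio, 0.333, differed little from that against WT replicate 1 alone, 0.344, and its P14 *Tbpl2*-/- libraries averaged 2.87 times the P7 ones. *Tcf7l2* was the sole member found in any of 23 lists of pathway genes. Of the 19 tested genes of the WNT list, 5 were lower and 2 higher by more than 2-fold at P7 (17.1% and 15.5% of all tested genes), and 4 were lower and 2 higher at P14 (14.6% and 16.7%), with medians of −0.08 and −0.25 on the log2 scale beside 0.02 and 0.07 over all tested genes.

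*Bhlhe40*, a basic helix-loop-helix repressor, averaged 2303 ± 133 in P7 *Tbpl2*-/- and 4828 ± 491 in P7 WT, and 4503 ± 752 in P14 *Tbpl2*-/- and 3991 ± 411 in P14 WT. The P7 *Tbpl2*-/- libraries of *Bhlhe40* were the lowest of the 12. *Hoxa7*, a homeobox factor, averaged 279.6 ± 47.7 in P7 *Tbpl2*-/- and 565 ± 128 in P7 WT, and 825 ± 59.7 in P14 *Tbpl2*-/- and 649 ± 127 in P14 WT, where all *Tbpl2*-/- libraries lay above WT. *Hoxa7* overlaps the antisense gene *Hoxaas3* over 20.4% of its exon bases, and the libraries keep no strand.

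*Setd4* encodes a SET-domain methyltransferase. At P7 *Setd4* had 10212, 7996 and 9152 in *Tbpl2*-/- and 13363, 20060.3 and 22098 in WT. At P14 it had 9988, 9213 and 8225 in *Tbpl2*-/- and 7499, 7089 and 7429.6 in WT, again with no overlap but now with *Tbpl2*-/- above. *Hirip3*, a histone-binding partner of the chaperone HIRA, averaged 2894 ± 555 in P7 *Tbpl2*-/- and 7181 ± 1019.7 in P7 WT, and 4088 ± 670.0 in P14 *Tbpl2*-/- and 3353 ± 936 in P14 WT. *Eny2*, a small subunit of the SAGA coactivator and of the TREX-2 export complex, averaged 3292 ± 692 in P7 *Tbpl2*-/- and 7149 ± 1932 in P7 WT, and 2393 ± 429 in P14 *Tbpl2*-/- and 2380.4 ± 89.3 in P14 WT.

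*Rybp* and *Yy1*, which can act together in Polycomb repression, were members too. *Rybp* had 375, 463 and 511 in P7 *Tbpl2*-/- and 956, 1269 and 1475 in P7 WT. At P14 *Rybp* had 242, 588 and 684 in *Tbpl2*-/- and 539.9, 279 and 754 in WT, with the same low libraries in each genotype as *Kmt2d*. *Yy1* averaged 425 ± 104 in P7 *Tbpl2*-/- and 902 ± 194 in P7 WT, and 426 ± 52.8 in P14 *Tbpl2*-/- and 299.6 ± 25.8 in P14 WT. A catalytic partner, *Rnf2*, not a member, was below WT at both ages, averaging 3931 ± 297 in P7 *Tbpl2*-/- and 10089.6 ± 1208 in P7 WT, and 3698 ± 539 in P14 *Tbpl2*-/- and 12284 ± 587 in P14 WT. Another partner, *Ring1*, averaged 361 ± 139 in P7 *Tbpl2*-/- and 373.5 ± 89.9 in P7 WT, and 548 ± 55.4 in P14 *Tbpl2*-/- and 143.6 ± 64.1 in P14 WT. The list of these partners was drawn up after the values were seen. Of its 10 tested genes, *Rybp* and *Yy1* included, 5 were lower and 2 higher by more than 2-fold at P7 (17.1% and 15.5%). At P14 3 were lower and 1 higher (14.6% and 16.7%).

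*Drap1* encodes a subunit of NC2, a complex that binds TBP on DNA and represses transcription. *Drap1* had 1505, 1452 and 1439 in P7 *Tbpl2*-/- and 2178, 4020.0 and 4143 in P7 WT. At P14 it had 1127, 1466 and 1345 in *Tbpl2*-/- and 1431, 1056 and 1391 in WT, where the libraries overlapped. Its partner *Dr1*, not a member, averaged 5713 ± 427 in P7 *Tbpl2*-/- and 7488 ± 871 in P7 WT, and 4656 ± 50.6 in P14 *Tbpl2*-/- and 4340.0 ± 187 in P14 WT. The rest of this group, *Sap30l* (of the Sin3 complex), *Gatad2b* (NuRD), *Ino80d* (INO80), *Rtf1* (PAF1), *Zbtb7b* and *Zc3h4*, had P7 ratios of 0.439 to 0.477 and P14 ratios of 0.944 to 1.48.

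**Figure D4:**
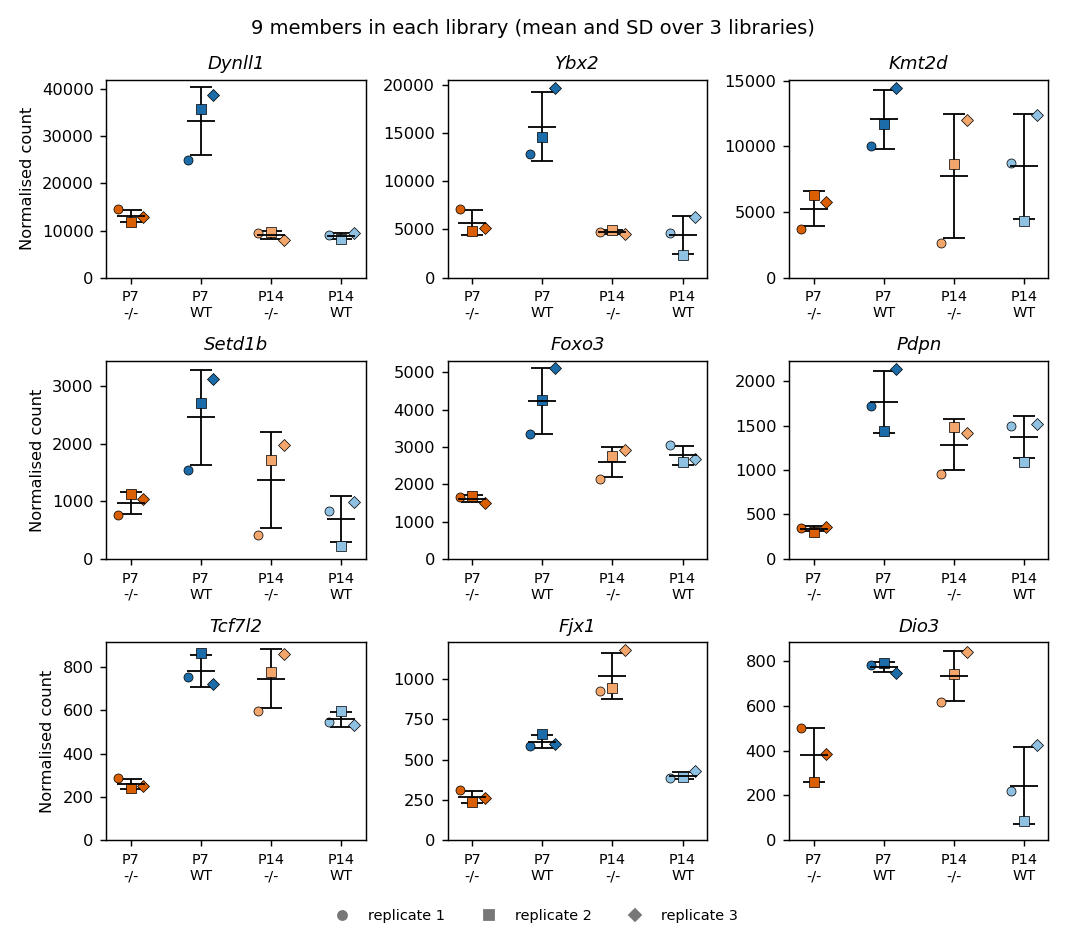
Normalised counts of 9 members in each library (symbols, by replicate), with the mean and SD over 3 libraries (horizontal bars). *Dynll1* and *Ybx2* are high only in P7 WT, *Kmt2d* and *Setd1b* vary widely between P14 libraries, *Foxo3*, *Pdpn* and *Tcf7l2* are low only in P7 *Tbpl2*-/-, and *Fjx1* and *Dio3* are lower in *Tbpl2*-/- at P7 but higher at P14.

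RNA processing and storage held 13 members, and for 11 of these the P14 mean in WT was at most 0.5 of the P7 mean. *Ybx2* (ENSMUSG00000018554, chr11:69935796-69941605) had 7152, 4841 and 5141 in P7 *Tbpl2*-/- and 12805, 14558 and 19658 in P7 WT. At P14 *Ybx2* had 4742, 4899.8 and 4512 in *Tbpl2*-/- and 4657, 2350.2 and 6262 in WT. Thus the P7 WT libraries stood above the other 9, and the P14 *Tbpl2*-/- libraries lay within the range of P14 WT. *Ybx1* and *Ybx3*, the other Y-box genes, were not members: *Ybx1* averaged 3117 ± 189 in P7 *Tbpl2*-/- and 5521 ± 702 in P7 WT.

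Splicing factors made up most of this group. *Luc7l3*, linked to the U1 particle, had 1336, 987 and 1115 in P7 *Tbpl2*-/- and 2755, 3913 and 3633 in P7 WT. At P14 *Luc7l3* had 1242, 1257 and 1179 in *Tbpl2*-/- and 1327, 912 and 1231 in WT, a level like that of P7 *Tbpl2*-/-. *Hnrnpul2*, a nuclear RNA-binding protein, had 777, 812 and 712 in P7 *Tbpl2*-/- and 1847, 2656 and 2970.0 in P7 WT. At P14 *Hnrnpul2* averaged 1371 ± 389 in *Tbpl2*-/- and 1191 ± 197 in WT. It was the one member of this group that was above 1.25 times its P7 mean at P14 in *Tbpl2*-/-, at 1.79 times.

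*Nsrp1*, a nuclear speckle splicing factor, averaged 5525 ± 636 in P7 *Tbpl2*-/- and 11396 ± 2171 in P7 WT, and 4896 ± 675 in P14 *Tbpl2*-/- and 5082 ± 711 in P14 WT. *Zcrb1*, a protein of the minor spliceosome, averaged 3911 ± 411 in P7 *Tbpl2*-/- and 8774 ± 1974 in P7 WT, and 3780.0 ± 618 in P14 *Tbpl2*-/- and 3933 ± 117 in P14 WT. Both had a flat level in the 3 groups other than P7 WT. *Pcbp2*, a poly(C)-binding protein, averaged 1242 ± 247 in P7 *Tbpl2*-/- and 3295 ± 768 in P7 WT, and 1076 ± 149 in P14 *Tbpl2*-/- and 932 ± 154 in P14 WT, with 36.2% of its exon bases shared with *Map3k12*. *Eif5b*, which joins the ribosomal subunits at the start of translation, averaged 2664 ± 196 in P7 *Tbpl2*-/- and 6203 ± 1668 in P7 WT, and 3179 ± 99.9 in P14 *Tbpl2*-/- and 3162 ± 315 in P14 WT. *Rp9*, *Khdrbs1*, *Magoh*, *Zmat2*, *Ubl5* and *Snrpe*, most of them known from splicing or the exon junction, had P7 ratios of 0.427 to 0.497 and P14 ratios of 0.907 to 1.39.

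The 20 tested genes of a list of splicing factors, none of them a member, went both ways. At P7 2 of them were lower (17.1% of all tested genes) and 0 higher (15.5%) by more than 2-fold, and 7 lower and 5 higher at any fold (28.9% and 30.5%), with a median of 0.05 on the log2 scale. At P14 1 was lower (14.6%) and 1 higher (16.7%) by more than 2-fold, and 5 lower and 6 higher at any fold (27.8% and 29.9%), with a median of −0.05. The Sm proteins, the ring on spliceosomal RNAs, were listed after *Snrpe* was seen among the members. Of the 8 tested, *Snrpe* included, 6 were lower and 2 higher at any fold at P7 (28.9% and 30.5%). At P14 0 were lower and 1 higher (27.8% and 29.9%). *Snrpd1* averaged 1812 ± 289 in P7 *Tbpl2*-/- and 5187 ± 1473 in P7 WT, and 1658 ± 119.8 in P14 *Tbpl2*-/- and 1906 ± 86.4 in P14 WT. *Snrpb* was above WT at both ages, with 7258 ± 687 in P7 *Tbpl2*-/- and 4520.3 ± 386 in P7 WT, and 6767 ± 1048 in P14 *Tbpl2*-/- and 2559 ± 215 in P14 WT.

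The 10 members at the cell surface or in signalling had other ratios between the ages than the RNA-processing members. All 10 were above 1.25 times their P7 mean at P14 in *Tbpl2*-/-, with a median ratio of 2.12, beside 1 of 13 and 0.97 for RNA processing. In WT 1 of the 10 was at most 0.5, with a median ratio of 0.70, beside 11 of 13 and 0.43. These counts compare groups drawn up after the values were seen and were not tested. The 2 groups also differed in median transcript length, 2557 bases for the 10 and 843 for the 13, and the part of length was not tested.

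*Pdpn* (ENSMUSG00000028583, chr4:143267431-143299564), a mucin-type membrane glycoprotein, had the lowest P7 ratio of all members, 0.192. At P7 *Pdpn* had 353, 305 and 355 in *Tbpl2*-/- and 1717, 1439 and 2133 in WT. At P14 it had 959, 1482 and 1413 in *Tbpl2*-/- and 1491, 1095 and 1516 in WT. Its P14 *Tbpl2*-/- libraries averaged 3.80 times the P7 ones and overlapped those of WT, and its P7 ratio was 0.197 against WT replicate 1 alone. *Robo3*, a receptor of the family that binds SLIT proteins, had 669.7, 602 and 669 in P7 *Tbpl2*-/- and 1793, 1341 and 1947 in P7 WT. At P14 *Robo3* had 1308, 1777 and 2269 in *Tbpl2*-/- and 2317, 1459 and 2126 in WT. *Robo3* was thus low in P7 *Tbpl2*-/- and at like levels in the other 3 groups, and replicate 1 was not the lowest of its P7 WT libraries.

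*Fjx1* (ENSMUSG00000075012, chr2:102449366-102452499), a relative of the fly gene four-jointed, reversed its order between the ages. At P7 *Fjx1* had 312, 237 and 261 in *Tbpl2*-/- and 584, 658 and 594 in WT. At P14 it had 923, 943 and 1179 in *Tbpl2*-/- and 384, 390.4 and 427 in WT. *Tbpl2*-/- and WT did not overlap at either age, and P14 *Tbpl2*-/- held the highest values. *Dio3* (ENSMUSG00000075707, chr12:110279068-110281097), which inactivates thyroid hormone, had 499.98, 261 and 384 in P7 *Tbpl2*-/- and 781, 794 and 747 in P7 WT. At P14 *Dio3* had 617, 742 and 840.3 in *Tbpl2*-/- and 221, 85.0 and 425 in WT. Its order was reversed in the same way, over a wide spread in P14 WT. *Adra2c*, an adrenergic receptor, had 396, 374 and 347 in P7 *Tbpl2*-/- and 805, 781 and 1001 in P7 WT. At P14 *Adra2c* had 959, 812 and 813 in *Tbpl2*-/- and 509.8, 515 and 536 in WT, so P14 *Tbpl2*-/- was at the level of P7 WT.

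*B4galt5*, which makes lactosylceramide, averaged 2218 ± 552 in P7 *Tbpl2*-/- and 4454 ± 1676 in P7 WT, and 3843 ± 319 in P14 *Tbpl2*-/- and 3551 ± 678 in P14 WT. Its P7 WT mean rests on replicate 3, at 6385, while replicates 1 and 2 had 3596 and 3381. *Shisa2*, which retains WNT and FGF receptors in the endoplasmic reticulum, was the sole member with a higher WT mean at P14 than at P7 by more than 1.25 times, averaging 1198 ± 162 at P14 and 819 ± 136 at P7 in WT, and 1219.7 ± 198 at P14 and 385 ± 27.8 at P7 in *Tbpl2*-/-. The others, the GABA receptor subunit *Gabrr3* and the signalling adaptors *Socs7* and *Tab2*, had P7 ratios of 0.417 to 0.473 and P14 ratios of 0.974 to 1.222.

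**Figure D5:**
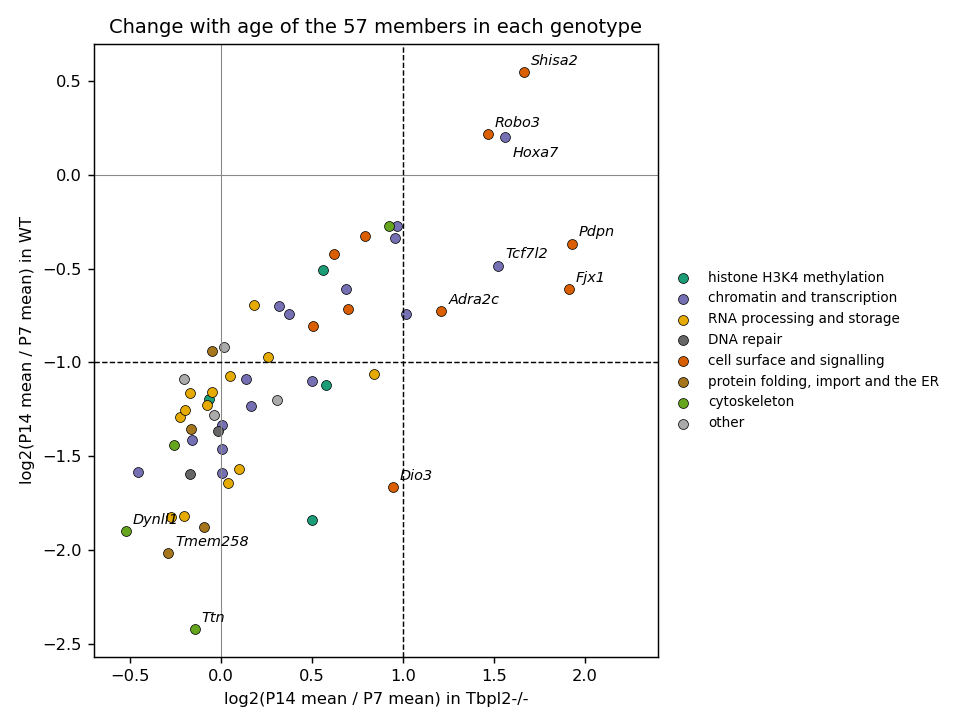
Each point is a member, placed by the log2 ratio of its P14 mean to its P7 mean in *Tbpl2*-/- (horizontal) and in WT (vertical), coloured by role, with dashed lines at a 2-fold rise in *Tbpl2*-/- and a 2-fold fall in WT. Cell surface and signalling members lie to the right, led by *Pdpn* and *Fjx1*, and RNA-processing members lie near 0 in *Tbpl2*-/- and low in WT.

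The most abundant member per kb of transcript was *Dynll1* (ENSMUSG00000009013, chr5:115297110-115300999), a light chain of the motor dynein and hub of many other complexes. At P7 *Dynll1* had 14566, 11875 and 12834 in *Tbpl2*-/- and 24985, 35712 and 38738 in WT. At P14 it had 9512, 9710.1 and 8072 in *Tbpl2*-/- and 8960.5, 8255 and 9402 in WT. *Dynll1* was 1 of 2 members whose P14 *Tbpl2*-/- libraries all lay below the P7 ones, the other being *Zmat2*. Its group mean was 20649 normalised counts per kb in P7 *Tbpl2*-/- and 52279.5 in P7 WT, whereas the lowest of the members, *Fjx1*, had 86.2 in P7 *Tbpl2*-/- and 195 in P7 WT.

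*Ttn* (ENSMUSG00000051747, chr2:76703980-76982547) encodes the giant muscle protein titin. It had 7257, 5716 and 6017 in P7 *Tbpl2*-/- and 13656, 23908 and 19311 in P7 WT. At P14 *Ttn* had 4245, 5032 and 7875 in *Tbpl2*-/- and 3216, 2169.9 and 5227 in WT, with overlap through WT replicate 3. Of all members *Ttn* had the lowest WT ratio of the P14 mean to the P7 mean, 0.187. *Traf3ip1*, of ciliary transport, had a ratio of 0.446 at P7 and of 1.02 at P14. *Capns1*, the small calpain subunit, had a ratio of 0.431 at P7 and of 0.976 at P14.

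*Swi5*, of DNA repair, had 3172, 2139 and 2532 in P7 *Tbpl2*-/- and 4707, 6246 and 7307 in P7 WT. At P14 *Swi5* had 1724, 2599 and 2635 in *Tbpl2*-/- and 1873, 1229.6 and 2949 in WT, where both genotypes overlapped widely. *Rad23b*, of nucleotide excision repair, averaged 1191 ± 67.3 in P7 *Tbpl2*-/- and 3018 ± 726 in P7 WT, and 1177 ± 391 in P14 *Tbpl2*-/- and 1173 ± 676 in P14 WT. In protein folding and import, *Pfdn2*, a subunit of the chaperone prefoldin, averaged 1407 ± 385 in P7 *Tbpl2*-/- and 3315 ± 1142 in P7 WT, and 1318 ± 246 in P14 *Tbpl2*-/- and 902 ± 151 in P14 WT. *Timm8b*, *Tmem258* and *Selenok*, of mitochondrial import and the endoplasmic reticulum, had P7 ratios of 0.421 to 0.489 and P14 ratios of 0.905 to 1.53. *Spag7*, of no clear role, averaged 5990.0 ± 861 in P7 *Tbpl2*-/- and 12118 ± 2513 in P7 WT, and 5198 ± 691 in P14 *Tbpl2*-/- and 5695 ± 333 in P14 WT. The remaining members, *Cdv3*, *Fam104a* and *Pcbd2*, had P7 ratios of 0.480 to 0.497 and P14 ratios of 0.950 to 1.42.

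All 57 members are protein-coding, on 18 chromosomes with at most 7 on any of them. Their median transcript length was 1151 bases, beside 1383 for genes with a mean of at least 500 and 1678 for genes at or below 0.5 at both ages, and 47.4% were of at most 1000 bases, beside 38.1% and 31.1%. In 9 members over 10% of the exon bases overlapped another gene or of the 50-base stretches were found in another gene, so that their counts are less certain. Beside *Setd1a*, *Hoxa7* and *Pcbp2* these were *Ubl5* (54.5% overlap, *Fbxl12*), *Fam104a* (42.6%, *Cog1*), *Pfdn2* (27.6%, *Klhdc9*), *Eif5b* (16.8%, *Rev1*), *Timm8b* (15.6%, *Nkapd1*) and *Selenok* (12.7% shared stretches, *Gm48228*).

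Several genes lay just at the limits. Inside the P7 limit were *Fam104a* (0.497), *Pcbd2* (0.497) and *B4galt5* (0.498), and outside it *Chchd10* (0.5004), *Hypk* (0.501) and *Dnajb6* (0.501). Inside the P14 limit were *Timm8b* (0.905), *Rp9* (0.907) and *Robo3* (0.907), and outside it *Dusp5* (0.8996), *Pfdn5* (0.880) and *Apoe* (0.880). Inside the limit on the mean were *Yy1* (513), *Dio3* (533) and *Fjx1* (574), and outside it *Tifab* (475), *Samd5* (463) and *Gar1* (459). Only 16 members stayed within the rule when each of the 12 libraries was left out in turn, among them *Dynll1*, *Ttn*, *Hirip3*, *Luc7l3*, *Hnrnpul2*, *Tcf7l2*, *Adra2c* and *Fjx1*. Without P7 WT replicate 1 the rule found 93 genes, 55 of them members, and without P7 WT replicate 3 it found 37, 35 of them members.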

How the data were processed

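PolyA RNA of the oocyte pools was made into cDNA (SMART-Seq v4) and read as single 50-base reads. The authors aligned the reads to mm10 with STAR 2.7.0f and counted them per Ensembl gene with HTSeq 0.9.1 in union mode, and the deposited table holds these raw counts. How strand was set is not given in the sources used here. The table also holds a normalised signal per gene, which the authors made by dividing each count by a DESeq2 (1.22.2) size factor. It holds the authors' own comparisons too (fold changes, standard errors, test statistics, p-values and means per kb), which were not used.

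The rule and all printed levels used the normalised counts. Fits used the raw counts of 12 libraries in 4 groups with edgeR 4.0.16 (TMM factors, quasi-likelihood test, Benjamini-Hochberg adjustment over 17715 genes with enough counts), in R 4.3.3. A call needed an adjusted p of at most 0.05 and, where stated, a change of more than 2-fold. DESeq2 1.42.0 served as an alternative. Marker sums were compared by exact permutation tests in Python 3.11.15. The fit was tested on simulated data with 200 changed genes: at 2-fold it called 73% at P7 and 80% at P14. Promoters were matched by symbol to RefSeq, GRCm38.p6.

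The members and all gene lists were chosen with earlier results of these data known. Values are given for 27 members by a rule: the 15 with the highest mean, the 10 with the lowest P7 ratio, the 5 with the highest P14 ratio and up to 3 members of each gene list. Other members named for their roles were chosen after their values were seen.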

Additional observations from a re-analysis of the deposited data

Results flagged for a closer look

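The sum of 4 smooth muscle markers went opposite ways at the ages, and Myh11 alone carried it. The sum was higher in Tbpl2-/- by 1149.67 normalised counts at P7, and the difference of Tbpl2-/- minus WT was −1298.23 at P14. Myh11 had 2842, 3035 and 2922 normalised counts in P7 Tbpl2-/- and 1531, 1705 and 1701 in P7 WT, while Cnn1 was the other way round at P7, with 420.2, 413 and 408 in Tbpl2-/- and 488, 599 and 587 in WT, and Acta2 and Tagln were near 0. For the sum, all 3 libraries of each genotype lay on the same side at each age, and the difference between the ages was not tested.

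For 46 of the 57 members the genotype effect was more positive at P14 than at P7 by more than 2-fold in edgeR's interaction test. Among all tested genes the shares were 8.16% more positive and 5.41% more negative, the latter call reaching no member. The rule chose genes with this difference, so the count describes the members. Fjx1 and Dio3, at or below 0.5 of WT at P7 by the rule, were higher by more than 2-fold at P14, with log2 fold changes of 1.36 and 1.601 (edgeR, adjusted p at most 0.05). That call at P14 was reached by 16.7% of all tested genes.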

How the results depend on the processing

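The rule depended on its limits and on single P7 WT libraries. It found 14 genes with a P7 limit of 0.4, 143 with 0.6, 87 with a P14 limit of 0.8, 130 with a mean limit of 100 and 91 with group medians. Leaving out 1 library at a time gave 37 (without P7 WT replicate 3) to 93 (without P7 WT replicate 1). With library size scaling it found 48 genes, 15 of them members. That scaling moved the median log2 fold change of all tested genes to 0.29 at P7 and 0.48 at P14, and the medians of the members minus these were −1.17 and −0.00, beside −1.16 and 0.01. A change of scaling moves all genes of a comparison by about the same amount, so these differences could hardly change. It called 1557 genes lower and 4917 higher at P14, beside 2589 and 2967, and the summed level of markers of granulosa cells at P14, Tbpl2-/- minus WT, turned to 1316.

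Scaling to mitochondrial mRNAs, added after seeing the data, moved the median of all genes to 1.39 at P7 and −0.32 at P14. The rule then found 1 gene, and the P7 log2 fold change turned positive for 20 of the 27 members named by rule, which were Kmt2d (0.28), Spag7 (0.42), B4galt5 (0.39), Rp9 (0.43), Dio3 (0.32), Setd1b (0.22), Dynll1 (0.12), Setd4 (0.45), Nsrp1 (0.40), Zcrb1 (0.31), Hirip3 (0.10), Bhlhe40 (0.33), Eny2 (0.36), Eif5b (0.28), Swi5 (0.22), Rybp (0.026), Pcbp2 (0.056), Foxo3 (0.066), Fjx1 (0.20) and Adra2c (0.18). The median member was at −1.11 relative to all genes, a difference that scaling can hardly change and that the rule selected. Scaling to mitochondrial mRNAs called 630 genes lower and 10768 higher at P7, 1435 higher at P14, 10320 lower and 57 higher for the difference between ages, 6 lower and 17167 higher at P14 than at P7 in WT, and 18 lower and 15556 higher in Tbpl2-/-. Under all other settings tried the P7 value of these 27 was negative in 486 of 486 cases. The rule chose them for a low P7 ratio in these same libraries, so that sign was largely fixed beforehand. The replicate numbers did not pair the libraries (correlations of same-numbered libraries of −0.11 to 0.22). Across genotypes the highest correlation, 0.305, was between P14 Tbpl2-/- replicate 1 and P14 WT replicate 2, the pools with the least RNA. A block by replicate number does not match these libraries. With a replicate block 2926 genes were lower and 2741 higher at P7, 2558 and 2878 at P14, and 928 and 1207 for the difference. With 3 libraries a group the spread between pools limits the precision of every value.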
